A study of Mus musculus with 2 samples.

Results

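The hepatocytes described here were those with the largest share of mitosis gene transcripts among the high-mitochondrial barcodes of 1 regenerating mouse liver. They were chosen in the library taken 48 h after partial hepatectomy (PHx48h), among the 765 barcodes with more than 30% of their UMIs in mitochondrial genes. A barcode marks 1 droplet, and a UMI (unique molecular identifier) marks 1 captured transcript molecule. These barcodes were ranked by the share of their non-mitochondrial UMIs that fell in 18 mitosis genes, named below as the rule genes, and the 60 highest were taken as members. The remaining 705 served for comparison. The library held 1586 barcodes and the whole series 60788. The paper left cells with high mitochondrial content out of its own analysis, at a limit its text does not give. Whether it kept any of the members is therefore not known here.

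The study isolated hepatocytes by collagenase perfusion from C57BL/6 mice (C57BL/6J in the methods) on a normal diet, 10 to 12 weeks old per the labels, though the methods give a younger age at surgery, and profiled them by droplet scRNA-Seq. It asked how hepatocytes differ from each other while the liver regrows after PHx, an operation that takes out the larger lobes. The undamaged group (0 h) and the PHx48h group had 1 library each, made per the methods from the hepatocytes of 1 male mouse. The 60 members and the 705 others came from the same mouse, so no value below carries a replicate error and no test was made. Every interval is a 95% interval for counting error only, of UMIs or, for shares of barcodes, of barcodes.

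An adult hepatocyte is normally quiescent and enters the cell cycle after loss of liver mass. Before division a cell copies its DNA, then condenses its chromosomes, builds a spindle of microtubules, holds at a checkpoint until every chromosome is attached, and splits. Many genes for these late steps share a transcriptional programme that peaks in G2 and mitosis, which is why their transcripts are used to find cells near division. Division itself, DNA content and ploidy were not measured in these files.

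The rule gene share of the members ran from 0.202% to 0.535% of non-mitochondrial UMIs, with a median of 0.271%. In the other 705 barcodes it ran from 0% to 0.202%, with a median of 0.0358%, and 162 of them had no rule gene UMI. The groups do not overlap because the ranking separates them. The values fell away without a gap at the limit. The lowest 3 members had shares of 0.206%, 0.204% and 0.202%, from 15, 38 and 59 rule gene UMIs. The 3 barcodes just outside had 0.2018%, 0.201% and 0.199%, from 2, 11 and 36 UMIs. The members held between 3 and 106 rule gene UMIs (median 20) from between 2 and 18 of the rule genes (median 10). In 12 of the 60 the share rested on fewer than 10 UMIs, and in 2 on fewer than 5.

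The members were deeper than the barcodes they were compared with. Their non-mitochondrial UMIs ran from 1165 to 32428 (median 8097.5), against 693 to 35712 (median 4161) in the others, and 42 of the 60 lay above the median of the others. Their mitochondrial share ran from 30.4% to 80.6% (median 51.0%), and 39 lay below the median of the others, 57.3%. A median of 2506 genes was detected per member, against 1629. The part of depth and mitochondrial share in the differences below was not tested.

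**Figure D1:**
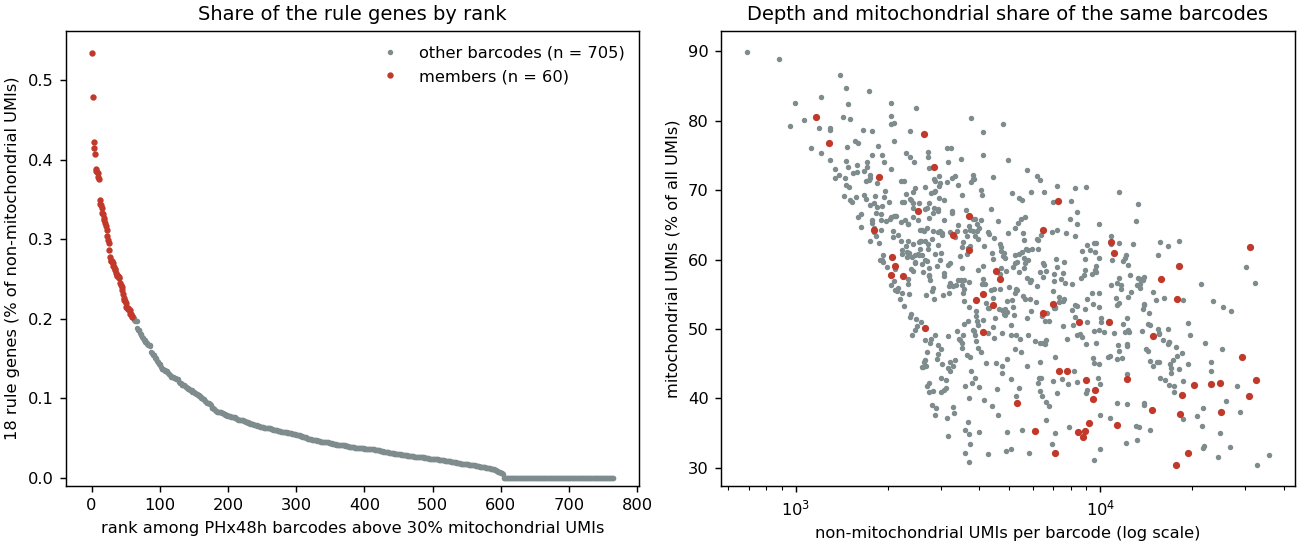
Left, the share of the 18 rule genes in non-mitochondrial UMIs (%) against rank for the 765 PHx48h barcodes above 30% mitochondrial UMIs, with the 60 members in red and the 705 others in grey. Right, the mitochondrial share of all UMIs (%) against non-mitochondrial UMIs per barcode (log scale) for the same barcodes. The curve passes the limit at 0.202% without a gap, and the members spread over nearly the whole depth range with a median of 8097.5 against 4161.

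The label hepatocyte was set beside markers of 9 cell classes. Albumin transcripts were found in 60 of 60 members, and the 10 hepatocyte markers summed to 107932 UMIs per 1000000 non-mitochondrial UMIs (CPM), the unit of every level below. The same sum was 124376 in the other barcodes. None of the 60 members reached 0.5% of its UMIs in any of the 8 lists for other classes. This share was reached by 2 of 705 others and 9 of the 522 PHx48h barcodes under 2% mitochondrial UMIs. The exact binomial interval for 0 of 60 runs to 5.96%, but the 60 were ranked and not drawn at random. The summed macrophage list stood at 16.1 in the members and 30.8 in the others, with Csf1r, Adgre1, Marco, Cd68, Lyz2 and C1qc at 0 UMIs in the members. The endothelial list stood at 94.7 and 84.6 (ratio 1.12, 0.836 to 1.48). Of its 12 genes, 8 had a ratio above 1 and 4 below, with Stab1 and Lyve1 at 0 in the members. The stellate list stood at 45.0 and 35.7 (ratio 1.26, 0.811 to 1.89). Of its 12 genes, 6 had a ratio above 1 and 6 below, with Lrat, Des, Acta2 and Col1a1 at 0 in the members. The most abundant genes of the 2 lists in the members were Egfl7 (16.9% of the endothelial UMIs) and Dcn (42.9% of the stellate UMIs). T or NK, B and neutrophil markers had 0 UMIs in the members. The cholangiocyte list stood at 43.3 and 59.4, of which Spp1 made up 85.2% in the members, and the erythroid list at 25.7 and 27.9, nearly all of it Alas2. The source of the Alas2 UMIs was not tested. The doublet caller Scrublet marked 11 of the 1586 barcodes and 0 of the members. Of the 60 member barcode sequences, 7 also occurred in the undamaged library, as did 148 of all 1586, and whether these mark different droplets was not tested.

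Among the rule genes, the cyclin-dependent kinase Cdk1 drives entry into mitosis with its partners cyclin A2 (Ccna2) and the B-type cyclins Ccnb1 and Ccnb2. Cdc20 and Ube2c serve the anaphase-promoting complex, which destroys the cyclins and releases the chromosomes. Mki67 coats mitotic chromosomes, and topoisomerase II alpha (Top2a) untangles them. Aurkb, Birc5 and Cdca8 belong to the chromosomal passenger complex, Plk1 is a mitotic kinase, Tpx2, Kif11, Nusap1 and Prc1 organise the spindle, and Cenpf sits at the kinetochore. The members were picked on these levels, so the following values are a description.

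Cdc20 (chr4:118432901-118437352, minus strand, GRCm38) had 238 UMIs in the members and 196 in the much larger set of others, at levels of 382 and 43.7, a ratio of 8.74 (7.20 to 10.6). Its level per member ran from 0 to 1657 with a median of 387, and the median of the others was 0. Ube2c had levels of 328 and 43.7 (ratio 7.49, 6.12 to 9.16) and Mki67 of 318 and 40.8 (ratio 7.78, 6.33 to 9.57). Cdk1 stood at 254 and 47.5, Top2a at 202 and 31.9, and Ccnb1 at 138 and 21.7. The members were high in all of these, and single barcodes of both sets overlapped for every gene. The ratios of the 18 genes ran from 2.98 for Ccnb2 (96.3 and 32.4) to 10.9 for Plk1 (65.8 and 6.03). Of the 18, 7 passed the level filter used for gene counts, 50 CPM over all 765 barcodes, and the remaining 11 were too sparse for it.

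No rule gene marked every member. Mki67 had a UMI in 50 of the 60, Cdca3 in 48, Cdc20 in 47, Cdk1 in 46 and Ube2c in 42, while Plk1 had one in 24, Aurkb in 20 and Kif11 in 17. Both Cdc20 and Ube2c were found in 36 members and neither in 7. Both Mki67 and Top2a were found in 35 and neither in 7. Cyclins A2 and B1 divided the members more evenly, with both in 21, Ccnb1 alone in 13, Ccna2 alone in 13 and neither in 13. With at most 10 UMIs of Ccnb1 and 5 of Ccna2 in any member, absence in a barcode was not separable from shallow sampling. Of the 5 marker genes of the label (Mki67, Top2a, Cdc20, Ccnb1 and Ube2c), at least 1 was detected in 58 members.

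**Figure D2:**
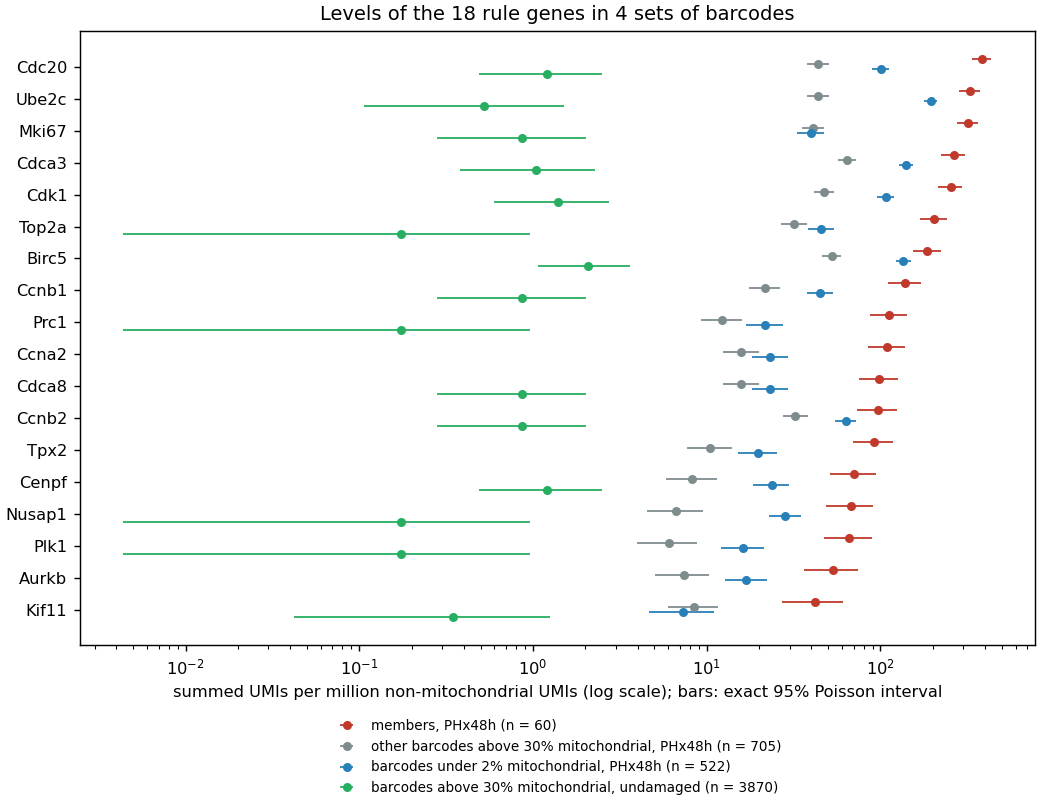
Summed level of each rule gene (CPM of non-mitochondrial UMIs, log scale) in the 60 members, the 705 other PHx48h barcodes above 30% mitochondrial UMIs, the 522 PHx48h barcodes under 2% and the 3870 undamaged barcodes above 30%, with exact 95% Poisson intervals as bars. The members lie highest for all 18 genes because they were ranked on them, the barcodes under 2% lie above the 705 others for most genes, and undamaged barcodes lie at 2.08 or lower, with Ccna2, Aurkb and Tpx2, at 0 there, not drawn.

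The separation on the rule genes was built in by the ranking. A second ranking, on part of these genes, was therefore read on the rule genes it had left out. When barcodes were ranked on 9 of the rule genes, the 60 highest shared 39 barcodes with the members. The 9 genes left out of that ranking stood at 1583 in those 60 and at 329 in the rest, a ratio of 4.81 (4.40 to 5.24). This ratio describes those 60, which are another set than the members, and is no support for the members' own separation.

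Further sets were measured in the same way. The 522 PHx48h barcodes under 2% mitochondrial UMIs held the rule genes at a summed level of 1052, above the 470 of the other 705 and below the 2877 of the members. To compare shares at a like depth, each barcode was thinned to 500 non-mitochondrial UMIs. Mki67 was then found in 16 of 60 members (26.7%, 16.1% to 39.7%), 15 of 705 others (2.13%), and 5 of 522 barcodes under 2% (0.958%). The unthinned shares were 83.3%, 17.4% and 20.3% at median depths of 8097.5, 4161 and 5271.5. For Ube2c the thinned shares were 15.0% (7.10% to 26.6%) in members and 7.85% (5.70% to 10.5%) in the barcodes under 2%. These intervals overlap at this depth. The thinned shares were 1.99% in the others and 0.0264% in the undamaged barcodes. Without thinning, the summed levels of Ube2c were 328 (284 to 376) in members and 194 (179 to 210) in the barcodes under 2%. Mki67 and Ube2c are rule genes, so these values are a description. The rule genes were close to absent from the undamaged barcodes, which were shallower. There, 3811 of the 3870 barcodes above 30% mitochondrial UMIs had no rule gene UMI, at a median depth of 1213.5. Of the 3870, 2 (0.0517%, 0.00626% to 0.187%) reached the lowest share of a member. After thinning to 500 UMIs, 2 or more rule gene UMIs, the fewest that pass that share at this depth, were found in 26 of 60 members. The same held for 29 of 705 others, 50 of 522 barcodes under 2% and 2 of 3795 undamaged barcodes, with 75 shallower undamaged barcodes left out.

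The promoters of the rule genes were read because many late cell cycle genes carry a cell cycle genes homology region (TTTGAA or TTTAAA) and CCAAT boxes, both known as elements of G2 and mitosis promoters. In RefSeq's promoter windows (250 bases before to 50 after the start, build GRCm38.p6), 15 of the 18 rule genes had an entry. TTTGAA or TTTAAA on either strand occurred in 14 of the 15 (93.3%), in 44 of 62 matched mitosis genes outside the rule (71.0%) and in 30.6% of all 27025 genes. CCAAT on either strand occurred in 86.7%, 69.4% and 41.1%, and both kinds in 86.7%, 53.2% and 12.2%. A match describes the letters and is not a mapped site. The 250 bases before the start are shown for the 2 rule genes among the label's markers whose window lay outside the annotated gene, 5′ to 3′ on the gene's strand, with every TTTGAA and CCAAT, or their reverse complements, in capitals. Mki67 lies at chr7:135716380-135716629 and Top2a at chr11:99024190-99024439, both on the minus strand.
Mki67: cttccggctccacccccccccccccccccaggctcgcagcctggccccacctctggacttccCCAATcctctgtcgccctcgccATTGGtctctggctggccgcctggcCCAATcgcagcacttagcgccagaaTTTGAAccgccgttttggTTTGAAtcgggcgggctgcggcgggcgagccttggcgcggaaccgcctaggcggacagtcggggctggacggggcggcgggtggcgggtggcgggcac
Top2a: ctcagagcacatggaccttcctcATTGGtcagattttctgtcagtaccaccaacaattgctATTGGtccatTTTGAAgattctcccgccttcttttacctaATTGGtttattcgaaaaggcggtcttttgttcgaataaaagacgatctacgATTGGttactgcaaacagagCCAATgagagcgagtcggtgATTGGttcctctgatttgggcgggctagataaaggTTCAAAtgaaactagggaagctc
In Mki67, 3 CCAAT boxes lie 188, 166 and 141 bases before the start, followed by a pair of TTTGAA elements at 116 and 98. In Top2a, 6 CCAAT boxes are spread between 227 and 58 bases before the start, with TTTGAA elements at 179 and 23.

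Across all genes, the members resembled the barcodes around them. Of 2470 genes that passed the level filter, 2406 lay within 2-fold of the others, and the median log2 ratio of members to others was 0.04. At least 2-fold higher in the members were 40 genes (1.62% of those passing the filter), of which 7 were rule genes and 33 were not. At least 2-fold lower were 24 (0.972%). The filter acts on the pooled level, and 12 of the 40 higher genes, 5 of them rule genes, were below 50 CPM in the others and passed through the members, while 12 of the 24 lower genes were below it in the members. All 64 had counting intervals that left out a ratio of 1. These shares are the background for the gene lists below, whose genes and whose members were chosen in the same cells and are therefore described without a test.

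**Figure D3:**
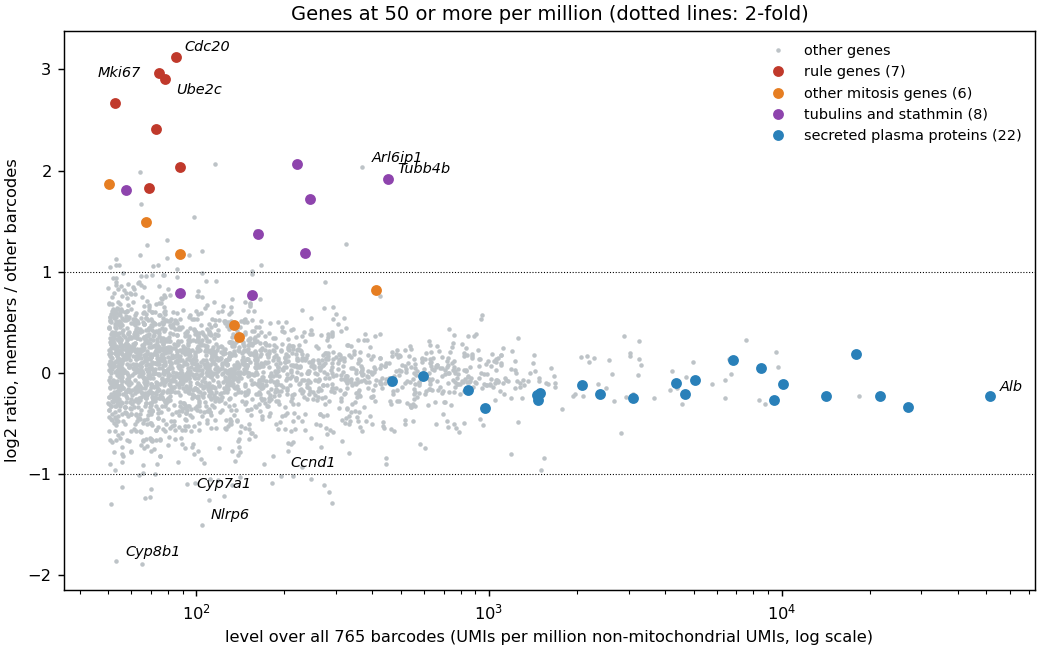
Log2 ratio of members to the other barcodes against the level over all 765 barcodes (CPM of non-mitochondrial UMIs, log scale) for the 2470 genes at 50 CPM or more. Dotted lines mark 2-fold, above which 40 genes lie and below which 24 lie. Rule genes, tubulins and some other mitosis genes stand above, and the 22 secreted plasma protein genes stay between the lines.

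Mitosis genes outside the rule were higher in the members together with the rule genes. The 77 such genes in the files summed to 4772 in the members and 1601 in the others, a ratio of 2.98 (2.85 to 3.11). Per barcode the sum ran from 1417 to 8438 in the members (median 4333) and from 0 to 7982 in the others (median 1421). The ranges overlap, but 59 of 60 members lay above the median of the others. All 77 genes had a ratio above 1, and 72 were at least 2-fold higher with no regard to level. With no level filter 1405 genes of any kind were 2-fold higher, and the median log2 ratio of all genes was 0.14. Their share of all genes was not counted at that setting, so these counts have no like background. The same limit holds for the counts below that leave out the filter. Only 6 of the 77 passed the level filter, of which 3 were 2-fold higher, and 1 of these, Bub3, passed through its level in the members.

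The largest ratio was that of the spindle motors and cytokinesis genes, 25 genes that summed to 973 in the members and 171 in the others (ratio 5.69, 5.11 to 6.34), with each of the 25 at least 2-fold higher and none passing the filter. Racgap1, which directs the cleavage furrow, stood at 81.9 and 13.6, and Kif22, a kinesin that moves chromosome arms, at 78.7 and 14.5. In 367 of the 705 others and in 3 of the 60 members no UMI of this list was found.

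Mitotic regulators, 19 genes, summed to 1093 and 329 (ratio 3.32, 3.03 to 3.64). The CDK-binding protein Cks2 was at 173 and 76.5 (ratio 2.27), and Lockd, a noncoding transcript beside the CDK inhibitor gene Cdkn1b, at 156 and 55.3 (ratio 2.81). Spindle checkpoint and kinetochore genes, 19 in the files, summed to 1097 and 348 (ratio 3.15, 2.88 to 3.45), with the checkpoint protein Bub3 at 140 and 38.2 (ratio 3.66). Condensins and chromatin genes, 14 in all, summed to 1609 and 754 (ratio 2.13, 1.99 to 2.29). The smallest ratios of that list were those of its most abundant genes, the histone variant H2afz (665 and 376, ratio 1.77) and Hmgb1 (173 and 135, ratio 1.28). The PHx48h barcodes under 2% mitochondrial UMIs held the condensin and chromatin list at 1736 (1690 to 1783). That was no lower than the 1609 of the members, and Cks2 stood at 178 there. Mitotic regulators stood at 643, checkpoint and kinetochore genes at 610 and spindle motors and cytokinesis genes at 248, all below the members.

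Tubulins, the building blocks of the spindle, and stathmin, which destabilises microtubules, summed to 3938 in the members and 1301 in the others (ratio 3.03, 2.89 to 3.17). Of the 8 genes of this list that passed the filter, 6 were 2-fold higher, 2 lay between and 0 were lower, and Tubb6 passed through its level in the members. Tubb4b ran from 0 to 2918 per member with a median of 1182, against a median of 250 and a highest value of 3719 in the others, and 57 of 60 members lay above that median. Its summed levels were 1280 and 339 (ratio 3.78, 3.46 to 4.12). Tubb5 stood at 665 and 159 (ratio 4.18), Tuba1b at 631 and 191 (ratio 3.30), Tuba1c at 353 and 136 (ratio 2.59) and Tubb6 at 154 and 44.0 (ratio 3.51). Tuba4a, at 244 and 144 (ratio 1.70), and Tubb2a, at 140 and 80.6 (ratio 1.73), did not reach 2-fold. Tubulin genes of the same family are similar in sequence, so reads may have been divided between some of them in ways the counting decides.

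DNA replication genes were higher by less. The 40 genes summed to 1414 and 850 (ratio 1.66, 1.55 to 1.79), and per barcode from 0 to 6394 in the members (median 1190) and from 0 to 5048 in the others (median 607). Of the 3 that passed the filter, 2 were 2-fold higher, which is no support for the list since Mcm6 passed through its level in the members. These were Rrm2, the regulated subunit of ribonucleotide reductase, at 233 and 79.9 (ratio 2.91, 2.39 to 3.54), and Mcm6, a subunit of the replicative helicase, at 101 and 46.4 (ratio 2.18, 1.62 to 2.90). Over the whole list 27 genes had a ratio above 1 and 13 below. Cyclin E2 (Ccne2) had 0 UMIs in the members against 26 in the others, with a counting interval of the ratio that includes 1. Ccne2, and the other genes below the filter named with their counts, were picked after their values were seen.

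G1 cyclins and CDK inhibitors did not move as 1 group. The 15 genes summed to 567 and 518 (ratio 1.09, 0.975 to 1.22, and 0.990 under TMM scaling). Cyclin D1 (Ccnd1, chr7:144929931-144939925, minus strand), which carries cells through G1 and is induced by PHx in hepatocytes, was the 1 gene of the list that passed the filter and lay past 2-fold. Its level was 103 in the members and 208 in the others (ratio 0.494, 0.377 to 0.637). Per barcode it ran from 0 to 858 in the members (median 98.1) and from 0 to 2387 in the others (median 92.5), so the sets overlapped fully and 31 of 60 members lay above the median of the others. The lower sum came with close medians and a lower highest value. In undamaged barcodes above 30% mitochondrial UMIs it stood at 4.50. Without Ccnd1 the ratio of the remaining list had an interval of 1.31 to 1.70. Cdkn2c, an inhibitor of the cyclin D kinases that was below the filter, stood at 75.5 and 16.1 (ratio 4.70, 3.18 to 6.88).

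Of the genes outside the rule and at 100 CPM or more, the 10 with the highest ratios were Ube2s, Tubb5, Arl6ip1, Tubb4b, Tuba1b, Calm2, Nucks1, Tuba1c, Hsp90aa1 and Mat2a. Ube2s extends ubiquitin chains for the anaphase-promoting complex, the same machine that Ube2c and Cdc20 serve, and stood at 350 and 83.7 (ratio 4.18, 3.52 to 4.96). Arl6ip1, an endoplasmic reticulum shaping protein, was at 1098 and 268 (ratio 4.09, 3.72 to 4.50), and 55 of 60 members lay above the median of the others. Calm2 encodes calmodulin and stood at 353 and 134 (ratio 2.64). Nucks1, a nuclear DNA-binding protein, was at 347 and 133 (ratio 2.60), and Mat2a, which makes S-adenosylmethionine, at 209 and 90.4 (ratio 2.31). Of the remaining genes past 2-fold, Rad21, a cohesin subunit, stood at 186 and 47.1 (ratio 3.96), and Hjurp, a chaperone that loads the centromeric histone, at 307 and 147 (ratio 2.09). Rad21 and Hjurp were picked after their values were seen.

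The 10 lowest ratios at 100 CPM or more belonged to Nlrp6, Angptl8, Cyp3a59, Hsd17b2, Thrsp, Etnk2, Chka, Cyp7a1, Ppp1r3b and Abcb4. Angptl8, a secreted inhibitor of lipoprotein lipase that feeding induces, was at 128 in the members and 314 in the others (ratio 0.408, 0.322 to 0.512), and 7 of 60 members lay above the median of the others. Thrsp, a regulator of lipogenesis, was at 135 and 305 (ratio 0.442). Etnk2 and Chka, kinases that start phospholipid synthesis from ethanolamine and choline, were at 135 and 292 (ratio 0.462) and at 65.8 and 142 (ratio 0.462). Ppp1r3b, which targets a phosphatase to glycogen, was at 61.0 and 127 (ratio 0.480). Nlrp6, an innate immune sensor, was at 40.1 and 114 (ratio 0.353, 0.226 to 0.528), and Hsd17b2, a steroid dehydrogenase, at 57.8 and 134 (ratio 0.430). Cyp3a59 belongs to a family of near-identical genes, and its levels of 49.8 and 119 are uncertain for that reason.

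Hepatocyte function was compared next, in members that held hepatocyte markers as all the other barcodes did. The 22 secreted plasma proteins summed to 177754 in the members and 198982 in the others (ratio 0.893, 0.888 to 0.899). Per member the sum ran from 96277 to 269170 with a median of 175205, inside the range of the others, 86865 to 321927 with a median of 188470. Of the 60 members, 12 lay above that median. None of the 22 genes was past 2-fold, 19 had a ratio below 1 and 3 above. Alb, the main plasma protein (chr5:90460897-90476602, plus strand), ran from 12017 to 82516 per member (median 39802) against 15630 to 105371 (median 46587), with summed levels of 44757 and 52622 (ratio 0.851, 0.840 to 0.861). Apoe, a lipoprotein component, stood at 21951 and 27826 (ratio 0.789). The exceptions above 1 were apolipoproteins, namely Apoa2 (ratio 1.14), Apoc3 (ratio 1.09) and Apoc1 (ratio 1.04).

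Hepatocyte transcription factors, 16 genes, summed to 1363 and 1599 (ratio 0.852, 0.793 to 0.915), with 0 of the 10 that passed the filter past 2-fold. Hnf4a, the nuclear receptor that maintains hepatocyte identity, was at 220 and 265 (ratio 0.831), with 27 of 60 members above the median of the others, and the retinoid receptor Rxra at 204 and 234 (ratio 0.871). Urea cycle and amino acid catabolism genes, 20 in all, summed to 14392 and 14895 (ratio 0.966, 0.945 to 0.988), with 0 past 2-fold. Cps1, the first enzyme of the urea cycle, stood at 2790 and 2547 (ratio 1.10).

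Glucose production and use summed to 4706 and 4370 over 15 genes (ratio 1.08, 1.04 to 1.12, and 0.974 under TMM scaling). Its most abundant gene in the members was Pck1, the gluconeogenic enzyme, at 1138 and 870 (ratio 1.31, 1.21 to 1.42), and without it the ratio was 1.02. Ldha, which interconverts lactate and pyruvate, stood at 978 and 1109 (ratio 0.882). Fatty acid oxidation and ketogenesis, 16 genes, stood at 4757 and 4731 (ratio 1.01, 0.967 to 1.04, and 0.910 under TMM scaling). Lipid and cholesterol synthesis, 15 genes, summed to 4906 and 4567 (ratio 1.07, 1.03 to 1.12, and 0.972 under TMM scaling), with 1 of the 15 genes 2-fold lower and 0 higher.

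Bile acid genes and transporters were lower as a sum. The 12 genes summed to 2367 and 2765 (ratio 0.856, 0.810 to 0.903), and 3 of the 12 were 2-fold lower and 0 higher. Cyp7a1, the rate-limiting enzyme of bile acid synthesis, was at 91.5 and 195 (ratio 0.470, 0.353 to 0.614) and was found in 17 of 60 members against 45.1% of the others, though the members were deeper. Cyp8b1, which sets the cholic acid content of bile, had 10 UMIs in the members, at 16.1 and 58.5 (ratio 0.275, 0.130 to 0.513), and passed the filter through its level in the others. Abcb4, the canalicular phospholipid exporter, ran from 0 to 1069 per member (median 44.7) against a median of 209, with summed levels of 127 and 263 (ratio 0.482, 0.379 to 0.606), and 12 of 60 members lay above the median of the others. Cyp7b1, of the alternative synthesis pathway, lay the other way at 430 and 274 (ratio 1.57), and without it the list stood at 0.777. In undamaged barcodes above 30% mitochondrial UMIs, Cyp8b1 was at 451 and Cyp7a1 at 82.9.

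**Figure D4:**
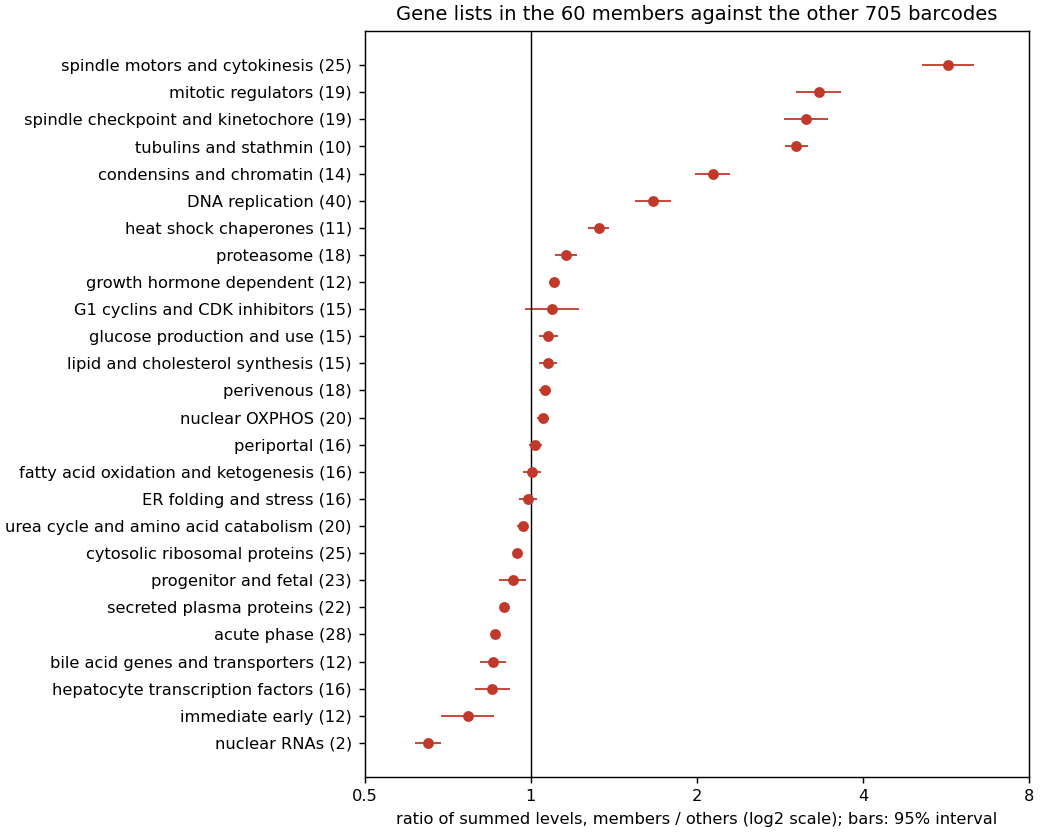
Ratio of the summed level in the 60 members to that in the 705 other barcodes (log2 scale) for 26 gene lists, with the number of genes of each list in the files in brackets and exact 95% counting intervals as bars. Spindle, mitotic, tubulin, condensin and replication lists lie between 1.66 and 5.69, and the hepatocyte function lists lie between 0.852 and 1.08. Lists near 1 can fall on either side of it under another scaling.

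The position of hepatocytes along the lobule, from the portal vein to the central vein, sets which metabolic genes they express, so the members were placed by zone. The 18 perivenous genes summed to 12910 and 12160 (ratio 1.06, 1.04 to 1.09) and the 16 periportal genes to 10364 and 10171 (ratio 1.02, 0.993 to 1.05). Neither direction was stable, since TMM scaling gave 0.961 and 0.922, and without its most abundant gene, Cyp3a11, the perivenous ratio was 1.01 (0.978 to 1.05). None of the genes of either list that passed the filter, 14 perivenous and 15 periportal, was past 2-fold. Cyp3a11, a drug-metabolising enzyme with near-identical family members, stood at 7225 and 6550, and Aldh1a1, a retinal dehydrogenase, at 832 and 853.

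The members came from the whole span of the zone axis in these data. The periportal share of all zone UMIs ran from 9.69% to 72.8% per member with a median of 48.1%, and from 5.64% to 76.1% with a median of 46.9% in the others. When the others were cut into 4 equal parts by this share, 17, 13, 15 and 15 members fell into them, from the most perivenous to the most periportal. The lowest member had 32 zone UMIs and the median member 172.5, so single placements were imprecise. With a mitochondrial limit of 50%, the share of members above the median of the others was 36.7% in place of 50%. Among the 48 members with at least 10 rule gene UMIs, an alternative chosen after seeing the data, it was 62.5%. The share therefore varied with which barcodes were kept.

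Acute phase genes, which hepatocytes turn on after injury, were lower in the members as a sum. The 28 genes stood at 62228 and 72347 (ratio 0.860, 0.851 to 0.869). Per member the sum ran from 35666 to 103106 (median 64034), against 29290 to 186344 (median 73437) in the others, and 11 of 60 members lay above the median of the others while 31 lay below its lower quartile. None of the 23 genes that passed the filter was past 2-fold. Hpx, the haem-binding protein hemopexin, ran from 4263 to 28673 per member (median 16012) against a median of 17538, with summed levels of 15927 and 18638 (ratio 0.855). Complement C3 stood at 7262 and 9009 (ratio 0.806). Closest to the fold limit was Hamp, the iron hormone hepcidin, at 827 and 1608 (ratio 0.514), a gene picked after its value was seen.

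Progenitor and fetal genes were not higher in the members as a sum. The 23 genes summed to 2310 and 2490 (ratio 0.928, 0.878 to 0.980), of which the keratins Krt8 (952 and 1046, ratio 0.911) and Krt18 (1106 and 1169, ratio 0.946) made up most. Of the 4 genes that passed the filter, 0 were past 2-fold. In the members, 11 genes of the list had 0 UMIs, among them the biliary keratins Krt7 and Krt19, Epcam, and the fetal genes Igf2, H19, Igf2bp3, Gpc3 and Dlk1. In the others, which held more UMIs in all, 6 of the 23 were at 0, Krt19, Igf2, Gpc3 and Dlk1 among them, and Krt7, Epcam and H19 had 2 UMIs each and Igf2bp3 7. Over the 622854 non-mitochondrial UMIs of the members, 0 UMIs allow a level of up to 4.82 by the count of 3. The fetal albumin-like gene Afp had 5 UMIs in the members and 36 in the others (8.03 in both), the ductal regulator Sox9 had 4 and 66 (6.42 and 14.7), and Slpi had 9 and 152 (14.4 and 33.9). Tnfrsf12a, a receptor induced in regeneration, stood at 57.8 and 55.8, and Yap1 at 36.9 and 31.5. These low-count genes were below the filter except Tnfrsf12a, and Afp, Sox9, Slpi, Tnfrsf12a and Yap1 were picked after their values were seen.

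**Figure D5:**
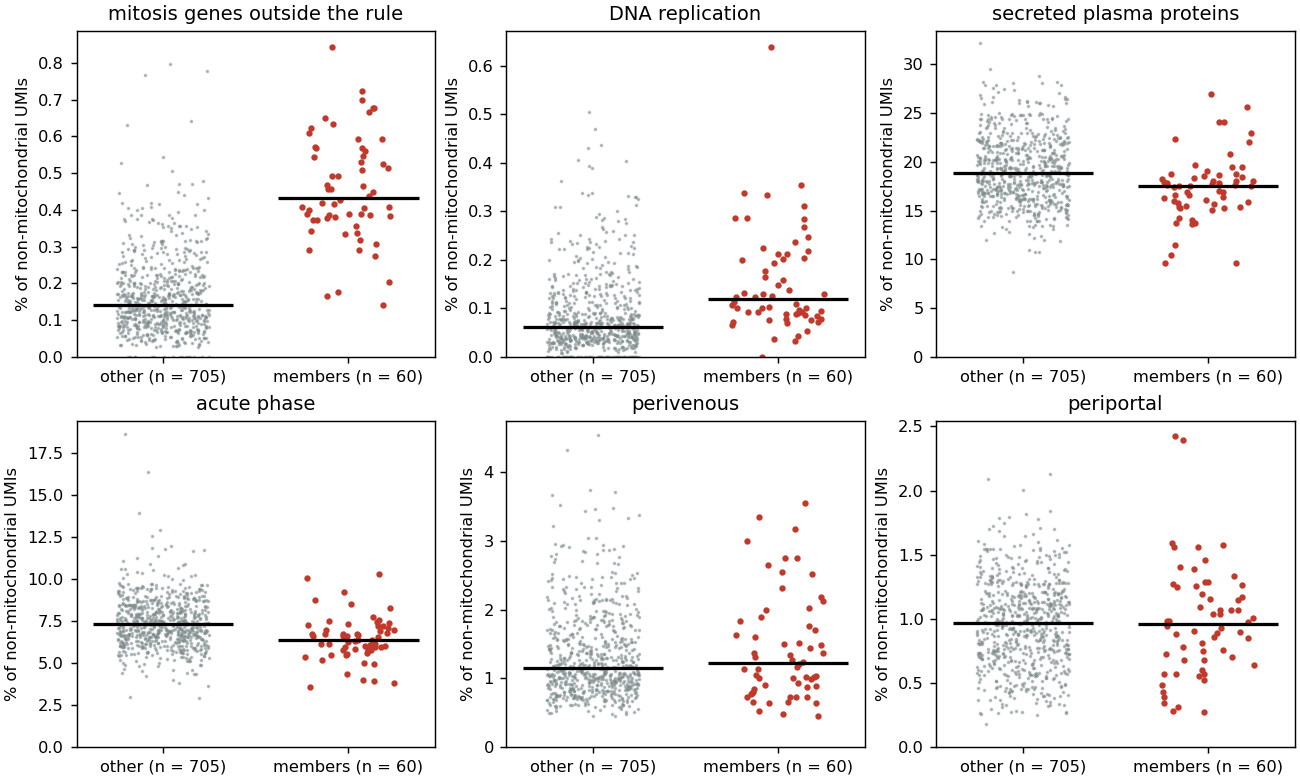
Share of non-mitochondrial UMIs (%) in 6 gene lists for each of the 705 other barcodes (grey) and 60 members (red), with the median as a black line. Members lie high for mitosis genes outside the rule (59 of 60 above the median of the others) and DNA replication, lower for secreted plasma proteins and acute phase genes (12 and 11 of 60 above it), and among the others for perivenous and periportal genes, with overlap in every panel.

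As a description over the 60 members, which share 1 library, Spearman's rank correlation with the rule gene share was 0.40 for the mitosis genes outside the rule, 0.07 for DNA replication, 0.15 for tubulins and stathmin, -0.35 for acute phase genes and -0.21 for secreted plasma proteins. Over the 705 others the same values were 0.36, 0.23, 0.33, -0.10 and -0.16. The ranking cut the range of the share in both sets. The rank correlation with depth was -0.04 in the members and 0.007 in the others, and with the mitochondrial share -0.06 and -0.11. Every list is a share of the same total, and the shares were estimated from few UMIs in shallow members.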

How the data were processed

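Hepatocytes of 1 undamaged liver (0 h) and 1 liver 48 h after PHx were profiled by 10X Genomics scRNA-Seq. Per the submitters' processing notes, Cell Ranger and the mm10 build were used. The Cell Ranger version is not given in the sources used here. The deposited values were whole-number UMI counts per gene and barcode for 27998 genes, without normalization. Libraries were assigned to groups by the time point in the labels.

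Levels were summed UMIs per 1000000 non-mitochondrial UMIs (CPM), with 13 mitochondrial genes left out. Sums had exact Poisson, shares exact binomial (Clopper-Pearson) and ratios exact conditional binomial intervals at 95%. Genes were counted at 50 CPM or more and a fold of 2. A share of 0 was bounded by the exact binomial interval, a level of 0 by 3 counts. UMIs count molecules, but intervals still cover counting error only. No test was possible with 1 library per group. The binomial intervals count barcodes of 1 library as independent draws, so they carry no error between mice. Doublets were called with Scrublet in Scanpy 1.11.5 and kept, since none was a member. TMM factors came from edgeR 4.0.16 in R 4.3.3, and other steps used Python 3.11.15, numpy 2.4.6, scipy 1.17.1 and pandas 2.3.3. The scripts for ratios, ranking and thinning were tested on simulated data. Coordinates came from GENCODE M21 (GRCm38) through the gene identifiers, which matched for 80 of 80 named genes.

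Named genes were the rule genes, in each list up to 4 genes each way past 2-fold at the level filter or otherwise its 2 most abundant, the 10 highest and 10 lowest ratios at 100 CPM or more outside the rule, and the markers. The members and lists were chosen with earlier results of these data known. Of the listed genes, 5 had no entry in the files. Some named genes are not reported here.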

Additional observations from a re-analysis of the deposited data

Results flagged for a closer look

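Barcodes outside the comparisons also carried the rule genes. Of the 821 PHx48h barcodes at or below 30% mitochondrial UMIs, 82 (9.99%, 8.02% to 12.2%) had a rule gene share at least that of the lowest member. In the undamaged library 12 of 55332 (0.0217%) did. That library held 59202 barcodes against 1586, so the 2 shares rest on unlike sets. Depth was not matched, and how many of the 55332 were cells was not tested. The share of the 82 ran from 0.204% to 0.792% with a median of 0.311%, and their non-mitochondrial UMIs from 3477 to 79514 with a median of 6370. Of the 82, 35 had under 2% mitochondrial UMIs. In 33 of the 82, markers of another cell class reached 0.5% of non-mitochondrial UMIs, which 0 of the 60 members did. Which cells these were was not tested.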

How the results depend on the processing

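Of 186 recomputed values, 123 stayed the same within their counting interval or within 1.5 times a count, 60 moved and 3 reversed. The 3 were all of the perivenous ratio, 0.988 with a mitochondrial limit of 50%, 0.966 with median-of-ratios and 0.961 with TMM scaling, against 1.06; the cause was not tested. The ratio of mitosis genes outside the rule stayed between 2.70 and 3.36 and that of DNA replication between 1.51 and 2.21, while acute phase (0.778 to 0.944) and secreted plasma proteins (0.808 to 0.917) stayed below 1.

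With a limit of 20%, DNA replication was 1.83, secreted proteins 0.917 and acute phase 0.908. With 50%, mitosis was 2.78, DNA replication 2.21, secreted proteins 0.917, periportal 0.950, acute phase 0.944 and the share of members above the others' median periportal share 36.7%. With 30 members, secreted proteins were 0.862, perivenous 1.26, periportal 0.985, acute phase 0.799 and 44 genes were 2-fold lower. With 100 members, DNA replication was 1.95, secreted proteins 0.885, urea cycle 0.995 and progenitor 0.867. Ranking over all UMIs gave secreted proteins 0.879, urea cycle 0.993, periportal 1.08 and acute phase 0.833. Ranking after thinning to 2000 UMIs gave mitosis 2.77, perivenous 1.01, periportal 0.990 and 15 genes lower. Means of per-barcode levels gave mitosis 2.76, DNA replication 1.85 and secreted proteins 0.905.

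Without the 20 most abundant genes in the total, secreted proteins were 0.868, urea cycle 0.939, perivenous 1.03, periportal 0.990 and acute phase 0.836. Median-of-ratios and TMM scaling moved the median log2 ratio of all genes from 0.04 to -0.10 and -0.11. They gave mitosis 2.71 and 2.70, DNA replication 1.51 and 1.51, secreted proteins 0.813 and 0.808, urea cycle 0.879 and 0.874, periportal 0.927 and 0.922, acute phase 0.783 and 0.778, progenitor 0.844 and 0.840, and 38 and 38 genes lower. Without the 60 next highest barcodes, mitosis was 3.36, DNA replication 1.84 and secreted proteins 0.885. Ranking on 9 rule genes gave mitosis 2.79. The counts of genes higher and lower were 1405 and 644 with no level filter, 13 and 14 at 100 CPM, and 156 and 110 at a fold of 1.5.

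Only the 48 members with at least 10 rule gene UMIs were then kept, an alternative chosen after seeing the data. All 13 values recomputed counted as the same. The counts of genes past 2-fold have no interval and were judged by the limit for counts. The share of members above the others' median periportal share rose from 50% to 62.5%, just inside the interval from all members, 36.8% to 63.2%. No paired analysis was possible because each group had 1 library. Of the 77 mitosis genes outside the rule, 71 were below the level filter, and variation between mice could not be seen.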

Other observations

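Several groups of housekeeping and stress genes were measured in the same members. Heat shock chaperones of the cytosol and mitochondria, which fold proteins, summed to 3925 in the members and 2959 in the others over 11 genes. The ratio was 1.33 (1.27 to 1.39, and 1.20 under TMM scaling), and 53 of 60 members lay above the median of the others. The 1 gene of that list past 2-fold was Hsp90aa1, at 673 and 278 (ratio 2.42, 2.16 to 2.70). Proteasome subunits, 18 genes, summed to 3420 and 2947 (ratio 1.16, 1.11 to 1.21, and 1.05 under TMM scaling), with 16 of the 18 above a ratio of 1 and 0 past 2-fold; Psmb6 stood at 361 and 281 and Psmb4 at 365 and 368. Nuclear genes of oxidative phosphorylation, 20 genes, had a ratio of 1.05 (1.03 to 1.08), which fell to 0.953 under TMM scaling, and cytosolic ribosomal proteins, 25 genes, of 0.946 (0.929 to 0.963).

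Genes that respond within minutes to stress or isolation were lower as a sum. The 12 immediate early genes stood at 570 and 741 (ratio 0.769, 0.687 to 0.858), with 17 of 60 members above the median of the others and 1 gene 2-fold lower, Zfp36, which destabilises cytokine transcripts, at 49.8 and 106 (ratio 0.471). The nuclear RNAs Malat1 and Neat1 stood at 1946 and 2937 (ratio 0.663) and at 381 and 638 (ratio 0.596). Malat1 ran from 0 to 27471 per member with a median of 1228, against a median of 1282 in the others, so the medians lay closer than the sums. Growth hormone dependent genes, 12 in all, had a ratio of 1.10 (1.08 to 1.12, and 0.996 under TMM scaling), led by the major urinary proteins Mup20 (10844 and 9391) and Mup3 (9148 and 7319), near-identical copies whose counts may be shared. Genes of endoplasmic reticulum folding and stress, 16 in all, had a ratio of 0.989 (0.952 to 1.03).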
